A study of Mus musculus with 12 samples.

Results

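The S100 proteins are a family of small calcium-binding proteins, and 10 of their genes were followed here by name through 4 mouse lung adenocarcinoma cell lines: S100a1, S100a4, S100a6, S100a8, S100a9, S100a10, S100a11, S100a13, S100a14 and S100a16. All array probe sets annotated to one of these symbols alone were taken, which gave 13 of 45037 probe sets, for 9 of the 10 genes. S100a11 shares its probe set with other gene symbols and was not analysed here. At the level of genes the 9 stand among 18193. The lines are KC1, KC2 and KC3, labelled highly metastatic, and KC4, labelled poorly metastatic, with 3 biological replicates on 1 array each. All 4 lines carry K-rasLA1/+ together with Cdkn1a-/-, on a background given as 127s, and were grown in RPMI medium with serum. K-rasLA1 is an allele whose mutant K-ras becomes active sporadically in single cells, and Cdkn1a encodes the cell-cycle inhibitor p21. By the labels, cultures were begun from 6 primary tumours of 4 mice, and which mouse gave which line is not stated. The poorly metastatic class is a single line, so what belongs to the class and what belongs to KC4 cannot be told apart.

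An S100 protein carries a pair of EF-hand calcium-binding loops and usually works as a dimer that opens a binding face for its partners when calcium rises. Some members act inside the cell on the cytoskeleton, annexins or p53, and some are also released and bind cell-surface receptors such as the RAGE receptor, encoded by Ager, and Tlr4. Most of the genes lie side by side on mouse chromosome 3. S100a4 is known as a metastasis-associated member that binds non-muscle myosin, and S100a8 with S100a9 forms calprotectin, the abundant calcium-binding complex of neutrophils.

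Values are linear signals in arbitrary units or log2 signals, where signals under 16 were set to 16, so that the lowest log2 value is 4. A gene was called different at a limma adjusted p under 0.05 with a log2 difference of at least 1, and a line is said to be set apart by a gene that was called between it and all 3 others, always higher or always lower. The median signal over all probe sets ran from 94.5 to 128 on the 12 arrays. Between 15.3% and 20% of the probe sets of an array lay at or under the floor. Epithelial markers were high in every line, with a mean log2 signal over 9 genes of 13.2 to 13.3 in KC1, 13.1 to 13.3 in KC2 and 13.1 to 13.2 in KC3, against 12.7 to 12.9 in KC4. The 5-prime control for 18S ribosomal RNA gave signals of 369 to 679 in KC1, KC2 and KC3 and of 2706 to 4383 in KC4. Its part in the KC4 differences was not tested. One probe set of the deleted gene Cdkn1a had mean signals of 7797 ± 457 for KC1, 5898 ± 504 for KC2, 6721 ± 507 for KC3 and 4355 ± 478 for KC4 (SD, n = 3), and another had means under the floor in every line. No source used here says which part of the gene either covers, so they check nothing about the genotype.

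The promoters of S100a1, S100a13, S100a16 and S100a4, which were among the genes called in at least 1 pair of lines, are shown first because neighbouring members of the family behaved differently in the same lines. The sequences are those of RefSeq on GRCm38.p6, 250 bases before to 50 after an annotated start site, 5′ to 3′ on the strand of the gene. Windows were found for 8 of the 10 genes, all but S100a10 and S100a14. In the windows of S100a1 (chr3:90514281-90514580, minus strand) and S100a13 (chr3:90514185-90514484, plus strand) the capitals mark the 204 bases that both share, read on opposite strands. The start sites of this pair lie 105 bases apart, head to head.
S100a1: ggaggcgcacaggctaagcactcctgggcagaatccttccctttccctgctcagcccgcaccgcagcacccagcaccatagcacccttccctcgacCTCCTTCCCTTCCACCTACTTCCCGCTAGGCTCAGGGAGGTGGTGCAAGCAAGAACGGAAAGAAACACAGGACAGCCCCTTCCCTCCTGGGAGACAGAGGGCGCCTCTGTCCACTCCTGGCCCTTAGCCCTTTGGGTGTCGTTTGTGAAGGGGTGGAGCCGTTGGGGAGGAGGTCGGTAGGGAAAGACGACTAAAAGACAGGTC
S100a13: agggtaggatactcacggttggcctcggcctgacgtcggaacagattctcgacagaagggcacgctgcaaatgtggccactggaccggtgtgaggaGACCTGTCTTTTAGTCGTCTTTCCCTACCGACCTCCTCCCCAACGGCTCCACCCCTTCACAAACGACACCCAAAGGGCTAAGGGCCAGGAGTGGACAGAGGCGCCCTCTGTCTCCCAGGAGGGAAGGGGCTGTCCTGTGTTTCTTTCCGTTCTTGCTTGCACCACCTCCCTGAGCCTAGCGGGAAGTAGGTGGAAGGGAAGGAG
S100a16 has a pair of windows, the upstream one at chr3:90537004-90537303 and the downstream one at chr3:90540896-90541195, both on the plus strand. Their capitals mark E-boxes, CANNTG, and the AP-1 motif, TGANTCA.
S100a16 upstream: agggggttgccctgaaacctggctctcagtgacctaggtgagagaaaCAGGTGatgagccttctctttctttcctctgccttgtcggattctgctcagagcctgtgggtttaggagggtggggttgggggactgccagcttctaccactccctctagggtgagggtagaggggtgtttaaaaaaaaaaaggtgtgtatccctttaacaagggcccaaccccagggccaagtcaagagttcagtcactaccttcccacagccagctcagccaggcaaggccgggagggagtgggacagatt
S100a16 downstream: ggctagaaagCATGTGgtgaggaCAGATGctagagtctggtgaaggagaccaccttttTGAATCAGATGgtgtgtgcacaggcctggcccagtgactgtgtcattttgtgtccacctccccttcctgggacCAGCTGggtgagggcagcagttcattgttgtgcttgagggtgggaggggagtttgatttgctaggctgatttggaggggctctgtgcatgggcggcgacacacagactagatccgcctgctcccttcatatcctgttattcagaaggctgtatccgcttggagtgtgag
In S100a4 (chr3:90603520-90603819, plus strand) the capitals mark the TATA box, TATAAA.
S100a4: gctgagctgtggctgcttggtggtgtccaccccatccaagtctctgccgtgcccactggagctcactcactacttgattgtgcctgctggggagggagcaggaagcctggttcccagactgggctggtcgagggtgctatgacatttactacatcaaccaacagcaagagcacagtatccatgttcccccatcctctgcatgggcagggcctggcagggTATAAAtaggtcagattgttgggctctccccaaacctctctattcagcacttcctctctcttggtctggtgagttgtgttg
Motifs were searched on both strands. The upstream S100a16 window held 1 E-box and the downstream one 4, of which 1 overlaps the single AP-1 motif. E-boxes occurred in 72.3% and AP-1 motifs in 7.81% of the 32851 promoter windows of this length. The TATA box of S100a4 began 31 bases before the start site (position -31) and was present in 13.6% of the windows. The letters CANNTG and TGANTCA are not in the S100a4 window. The numbers of CG dinucleotides were 11 in the S100a1 window and 14 in that of S100a13, and 2, 4 and 2 in the upstream S100a16, downstream S100a16 and S100a4 windows, against a median of 7 over all windows. These matches describe letters and do not show binding.

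The main question of the design was what separates the highly metastatic lines from KC4. Among the 9 measured genes, S100a4 and S100a16 had lower signals in the highly metastatic class, so that 2 were lower and 0 higher by limma. At an unadjusted limma p under 0.05, 4 were lower and 1 higher, where 19.3% of all genes were lower and 20.1% higher. Over all 18193 genes 5.45% were called in this comparison, 2.57% lower and 2.87% higher. The median difference of the 9 genes was -0.44 on the log2 scale, against -0.00088 over all genes. The same comparison over every probe set called 3 of the 13 S100 probe sets lower, where 2.1% of all probe sets were called lower. All KC4 arrays lay outside the range of the 9 other arrays for 2 of the 9 genes, again S100a4 and S100a16, and for 13.9% of all genes.

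**Figure D1:**
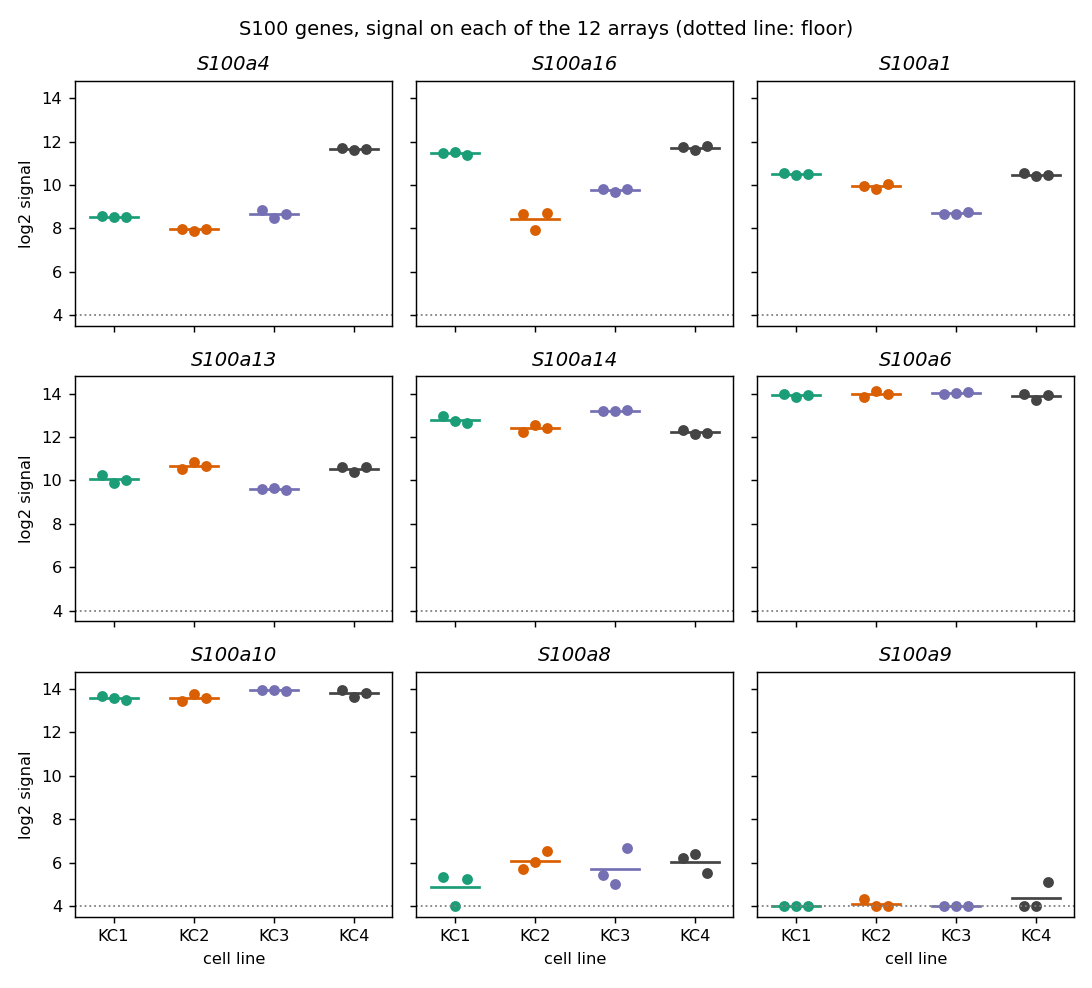
Log2 signal of the 9 measured S100 genes on each of the 12 arrays, 1 panel per gene. The x axis gives the cell line, points are single arrays, short bars are line means and the dotted line is the floor of 4. S100a4 stands high in KC4, S100a16 is low in KC2 and intermediate in KC3, and S100a1 is low in KC3, while S100a6 and S100a10 lie between 13 and 15 in every line.

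S100a4, the metastasis-associated member, had the largest difference between the classes of the 9 genes, and it was lower in the highly metastatic lines. Its signal was 381, 365 and 369 in KC1, 254, 238 and 253 in KC2, and 465, 360 and 405 in KC3, against 3360, 3131 and 3285 in KC4. All 9 arrays of the highly metastatic lines lay below all 3 of KC4. The mean difference was -3.28 on the log2 scale (SE 0.066, limma adjusted p = 4.25e-09), a 9.72-fold lower level. Each line differed from KC4 on its own, by -3.13 in KC1, -3.71 in KC2 and -3.0 in KC3 (SE 0.081 each), the largest limma adjusted p being 2.59e-08. S100a4 thus set KC4 apart as the highest line, as did 0.698% of all genes. These contrasts share the KC4 arrays. The call remained when the line was a random block, a fit that lets arrays of a line be correlated (limma adjusted p = 3.79e-05). That fit gave every gene the same correlation between arrays of a line (0.559). With KC4 as the only poorly metastatic line, the p-value does not measure how lines of that class vary.

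Within the highly metastatic class S100a4 was not uniform. KC2 was the lowest line: KC1 minus KC2 was 0.58 (SE 0.081, limma adjusted p = 0.000681) and KC2 minus KC3 was -0.72 (SE 0.081, adjusted p = 9.12e-05), both under the minimum difference for a call. KC1 and KC3 did not differ beyond their spread, with a difference of -0.13 and a 95% interval of -0.32 to 0.051. The gene has 1 probe set on this array, so no second one could be set beside it.

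S100a4 is also used as a marker of fibroblasts, so the fibroblast list was read beside it. None of its 10 genes was called between the classes by limma, and 0 had an unadjusted p under 0.05. The mean log2 signal over the list was 5.48 to 5.51 in KC1, 5.59 to 5.68 in KC2 and 5.21 to 5.72 in KC3, against 5.38 to 5.85 in KC4. The class differences of the list ran both ways, from -0.50 for the collagen gene Col1a1 (limma adjusted p = 0.391) to 0.95 for the receptor gene Pdgfra (adjusted p = 0.308), with a median of -0.20. The receptor gene Pdgfrb was at the floor on all 12 arrays. Of 5 endothelial markers 0 were called between the classes by limma, with 1 lower at an unadjusted p under 0.05.

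S100a16, a widely expressed member described in human cancers, was high in KC1 and KC4 alike and low in KC2 and KC3. On the probe set with the higher mean its signal was 2853, 2918 and 2712 in KC1, 410, 243 and 424 in KC2, and 904, 811 and 910 in KC3, against 3506, 3123 and 3565 in KC4. The arrays of the 4 lines did not overlap, although KC1 and KC4 lay close together. KC2 minus KC4 was -3.28 (SE 0.19, limma adjusted p = 1.32e-06), a 9.74-fold lower level, and KC3 minus KC4 was -1.96 (SE 0.19, adjusted p = 4.16e-05). KC1 minus KC4 was -0.26 and did not pass the test (limma adjusted p = 0.379, 95% interval -0.68 to 0.16). KC2 minus KC3 was -1.33 (SE 0.19, adjusted p = 0.000355) and KC1 minus KC2 was 3.02 (adjusted p = 5.68e-06), so S100a16 set KC2 apart as the lowest line. In that direction 1.02% of all genes set KC2 apart.

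The class difference of S100a16 was -1.83 (SE 0.15, limma adjusted p = 1.87e-05) and came from KC2 and KC3. With the line as a random block the call was lost (adjusted p = 0.38), as it was when the line was ignored (0.178). Without KC2 the difference was -1.11 and without KC1 -2.62, both still called.

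A second probe set of S100a16, of the x_at kind, gave the same order of lines. Its signal was 2347, 2166 and 2432 in KC1, 72.8, 72.3 and 56.6 in KC2, and 626, 622 and 480 in KC3, against 2737, 2571 and 2598 in KC4. The KC2 signals lay below the median signal of every array, in a range where no detection call is at hand, so no fold is given for them. KC2 minus KC4 was -5.30 as fitted (SE 0.12, limma adjusted p = 1.41e-08 over all probe sets). KC3 minus KC4 was -2.20 and KC1 minus KC4 -0.19 (adjusted p = 0.405). Probe sets ending in x_at can pick up related transcripts, and no source used here says which exons each of them covers.

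**Figure D2:**
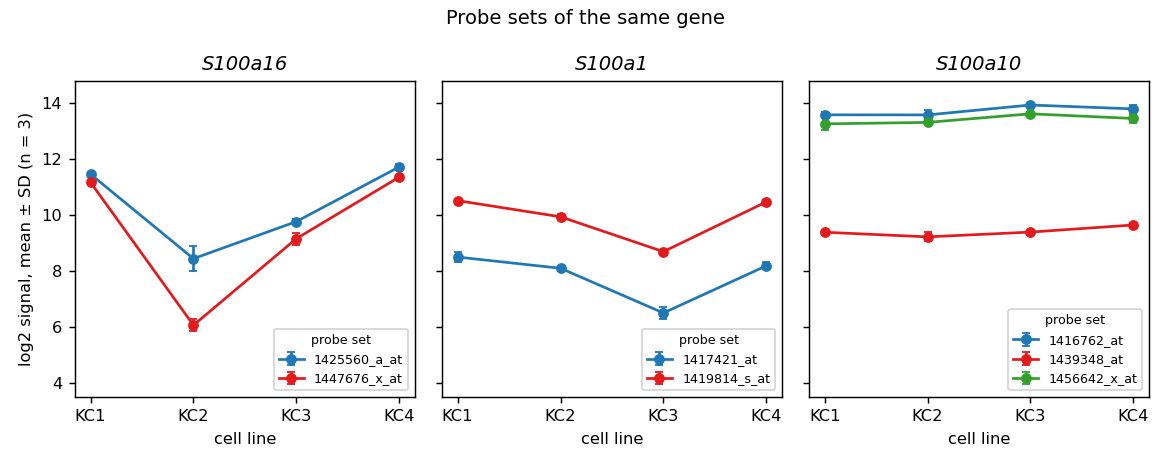
Log2 signal of every probe set of S100a16, S100a1 and S100a10 by cell line, as mean and SD of 3 arrays. Lines join the values of a probe set only to guide the eye. Both S100a16 probe sets are lowest in KC2 and both S100a1 probe sets are lowest in KC3, while the 3 of S100a10 stay nearly level.

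S100a1, best known as a calcium-dependent regulator of the ryanodine receptor and calcium pump in muscle, was lowest in KC3. On the probe set with the higher mean its signal was 1525, 1415 and 1467 in KC1, 993, 906 and 1057 in KC2, and 409, 405 and 429 in KC3, against 1510, 1360 and 1405 in KC4. No KC3 array reached the range of another line, and KC1 and KC4 overlapped. KC3 minus KC4 was -1.78 (SE 0.062, limma adjusted p = 8.95e-08), a 3.44-fold lower level. KC1 minus KC3 was 1.83 (adjusted p = 9.11e-08) and KC2 minus KC3 was 1.25 (adjusted p = 5.68e-07), so S100a1 set KC3 apart as lower, as did 1.54% of all genes. KC2 minus KC4 was -0.53 (SE 0.062, adjusted p = 0.00013), under the minimum difference, and KC1 minus KC4 was 0.045 with a 95% interval of -0.097 to 0.19.

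The other S100a1 probe set showed KC3 lowest as well. Its signal was 415, 343 and 334 in KC1, 255, 287 and 282 in KC2, and 107, 81.5 and 85.0 in KC3, against 300, 263 and 313 in KC4. KC3 minus KC4 was -1.69 (SE 0.12, limma adjusted p = 1.6e-05 over all probe sets). Here KC2 minus KC4 was -0.088 (adjusted p = 0.733), so the smaller step in KC2 was seen on 1 of the 2 probe sets. Between the classes the first probe set gave -0.76 (SE 0.051, adjusted p = 5.36e-06), under the minimum difference for a call. That probe set, like the one of S100a8, ends in s_at, and which transcripts it matches was not checked.

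S100a13, which takes part in the release of Fgf1 and Il1a without a signal peptide, is the head-to-head neighbour of S100a1 and was also lowest in KC3. Its signal was 1206, 959 and 1046 in KC1, 1474, 1823 and 1630 in KC2, and 776, 797 and 755 in KC3, against 1565, 1359 and 1582 in KC4. The KC3 arrays lay below all others, and KC2 and KC4 overlapped. KC2 minus KC3 was 1.08 (SE 0.10, limma adjusted p = 3.17e-05) and was the one pair called. Without KC2 replicate 2 it was 0.998 and with each array centred on its median 0.83 (adjusted p = 0.00325), both under the minimum difference. KC3 minus KC4 was -0.95 (SE 0.10, adjusted p = 9.8e-05).

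The pair that shares the 204 bases printed above did not follow the same order of lines. For S100a1 KC1 minus KC2 was 0.58 (SE 0.062, limma adjusted p = 0.000155), with KC1 higher. For S100a13 KC1 minus KC2 was -0.62 (SE 0.10, adjusted p = 0.00199), with KC1 lower. Both differences are under the minimum for a call, and the difference between the 2 genes was not tested.

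S100a14, an epithelial member of the family, ran the other way, with its highest signal in KC3. Its signal was 7974, 6829 and 6452 in KC1, 4870, 6058 and 5542 in KC2, and 9418, 9555 and 9676 in KC3, against 5060, 4597 and 4601 in KC4. KC3 lay above every other array, and KC2 overlapped with KC4. KC3 minus KC4 was 1.01 (SE 0.095, limma adjusted p = 3.98e-05), a 2.01-fold higher level at the edge of the minimum difference. Without KC3 replicate 3 (0.999), KC4 replicate 2 (0.985) or KC4 replicate 3 (0.985) it fell under that minimum. Between the classes the difference was 0.59 (SE 0.077, adjusted p = 0.000318), the one positive difference among the 9 genes that passed an adjusted p of 0.05, and it is under the minimum for a call. The epithelial markers moved in the same direction between the classes, with a median difference of 0.34 over 9 genes and 0 of them called by limma, 5 being higher and 1 lower at an unadjusted p under 0.05. Their part in the S100a14 difference was not tested.

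**Figure D3:**
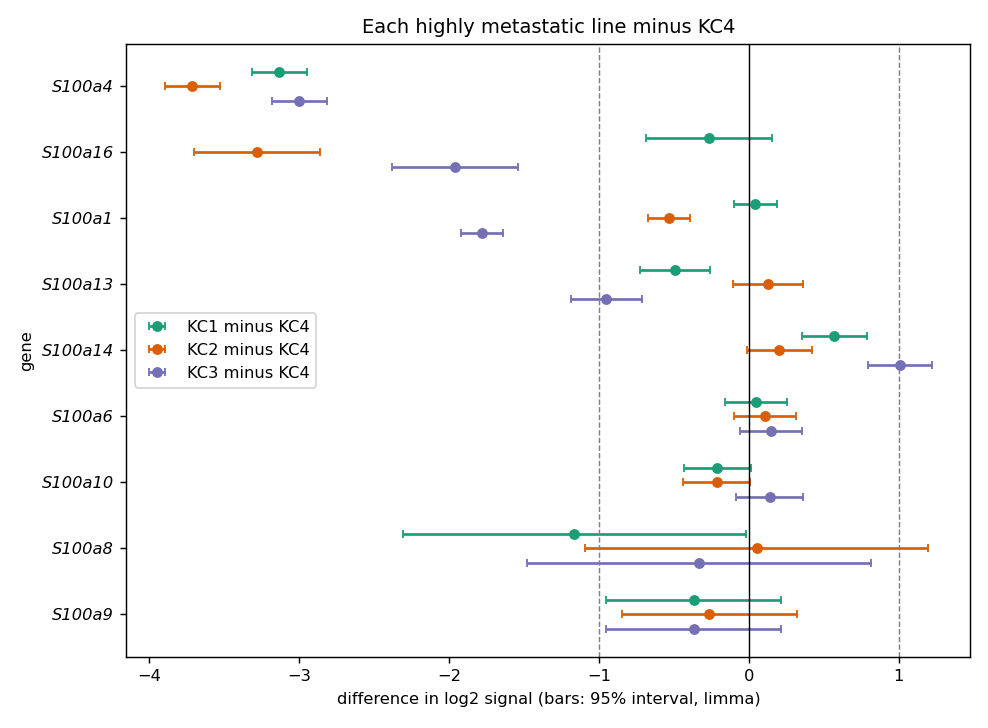
Difference in log2 signal of KC1, KC2 and KC3 minus KC4 for the 9 measured S100 genes. Points are limma estimates, bars are 95% intervals and dashed lines mark a difference of 1 in either direction. S100a4 lies below -1 in all 3 lines, S100a16 in KC2 and KC3, and S100a1 in KC3. S100a8, near the floor, also lies below -1 in KC1 (-1.16), with an interval of -2.31 to -0.019. The intervals of S100a6 and S100a10 stay within 0.5 of 0.

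S100a6 and S100a10 were bright in every line. S100a6, also called calcyclin, ranged from 13290 to 18076 with a median of 16174 over the 12 arrays, and the lines overlapped. Its difference between the classes was 0.10 (SE 0.074, limma adjusted p = 0.365, 95% interval -0.066 to 0.27), and the sign turned under quantile normalization (-0.072). S100a10, which forms a tetramer with annexin A2 at the plasma membrane and lacks calcium binding of its own, ranged from 11087 to 15969. Its difference between the classes was -0.095 (SE 0.081, adjusted p = 0.453, 95% interval -0.28 to 0.089). With quantile normalization that difference was -0.25 (adjusted p = 0.00116), under the minimum for a call. KC2 minus KC3 was -0.35 (SE 0.099, adjusted p = 0.0193). The brightest probe set of an array reached 19484 to 28631, so both genes lay in the upper part of the scale, and how linear the scale is there was not tested.

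The 2 other S100a10 probe sets had signals of 8308 to 13298 and of 527 to 824 over the arrays. The first, of the x_at kind as well, gave a class difference of -0.056 (limma adjusted p = 0.775). The second gave -0.31 (SE 0.061, adjusted p = 0.00508), with 806, 824 and 779 in KC4 above all 9 arrays of the other lines, of which the highest was 716 in KC1. None of the 3 was called in any pair of lines.

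S100a8 and S100a9, the subunits of calprotectin, were near or at the floor. S100a8 had signals of 41, 14 and 38 in KC1, 52.4, 65.5 and 91.3 in KC2, and 43.5, 32.1 and 101 in KC3, against 74.2, 83.2 and 45.4 in KC4. The lines overlapped apart from KC1, whose arrays lay below those of KC2 and of KC4, and no pair was called. KC1 minus KC4 was -1.16 (SE 0.50, limma adjusted p = 0.137) and KC1 minus KC2 -1.22 (adjusted p = 0.118), with 1 KC1 array at the floor. S100a9 had signals of 3.65, 15.8 and 6.32 in KC1, 19.8, 9.92 and 12.5 in KC2, and 4.84, 6.25 and 7.73 in KC3, against 8.08, 9.08 and 34.3 in KC4. On 10 of the 12 arrays it was at the floor, so no fold is given. The class difference on floored values, -0.33 (adjusted p = 0.294), rests on KC4 replicate 3 and was 0.034 without it. Of 15 measured markers of neutrophils and macrophages 1 was called between the classes, the Fc receptor gene Fcgr3 at 1.36 higher (SE 0.073, adjusted p = 1.37e-06), and this call was lost when the line was a random block (adjusted p = 0.0831). The mean log2 signal over those 15 was 6.44 to 6.69 in KC1, 6.55 to 6.88 in KC2 and 6.26 to 6.44 in KC3, against 6.36 to 6.61 in KC4.

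Every pair of lines was read in the same way. Of the 9 genes, 5 were called in at least 1 pair, against 20.4% of all genes. Highest and lowest line means were at least 1 apart for 6 of the 9, against 24.9% of all genes. In KC1 minus KC4, 1 gene was lower (S100a4), where 2.05% of all genes were. In KC2 minus KC4, 2 were lower (S100a4 and S100a16), where 4.46% of all genes were. In KC3 minus KC4, 3 were lower (S100a1, S100a4 and S100a16) against 4.7% of all genes, and 1 was higher (S100a14) against 3.52%. Among the highly metastatic lines, KC1 minus KC2 had 1 higher (S100a16) against 3.09%, and KC1 minus KC3 had 2 higher (S100a1 and S100a16) against 5.33%. KC2 minus KC3 had 2 higher (S100a1 and S100a13) against 5.9% and 1 lower (S100a16) against 4.94%. KC1 was set apart by 0 of the 9 genes, against 0.863% of all genes. At an unadjusted limma p under 0.05 against each other line, 0 of the 9 set KC1 apart, against 6.15% of all genes. Without any test, all arrays of KC1 lay outside the range of the other 9 arrays for 0 of the 9 genes (6.71% of all genes), those of KC2 for 2 (17.6%) and those of KC3 for 3 (19.2%).

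The position of the genes was then compared with their values. In the order along chromosome 3, S100a1, S100a13, S100a14 and S100a16 stand next to each other. They are followed by S100a3, S100a2, S100a4, S100a5 and S100a6 and then by S100a7a, S100a8 and S100a9. S100a2 and S100a7a were not measured. S100a10 lies in a separate block with S100a11. Neighbours differed in direction in the same line. In KC3 minus KC4, S100a1 (-1.78) and S100a16 (-1.96) were lower while S100a14 between them was higher (1.01). S100a4 was called between KC4 and every other line, while S100a6 differed by at most 0.15 in size between KC4 and another line. Of 20 protein-coding genes flanking both blocks, 5 on each side, 12 were measured. Of these 1 was called between the classes, the hair follicle and tongue gene Tchh (1.17 higher, SE 0.24, limma adjusted p = 0.00419), and 0 set a line apart. Over all genes 5.45% were called between the classes. S100a7l2, Hrnr and Tdpoz1 were at the floor in every line, and Npr1, Flg and Tchhl1 had line means of at most 4.57. For these flanking genes a difference could hardly be seen. The Tchh call was lost when the line was a random block (adjusted p = 0.616) or ignored (0.231), without KC3 (difference 0.74), without KC4 replicate 2 (0.93), with a pseudocount of 16 (0.96) and at a floor of 64 (0.81). The 5 genes before S100a1, from Ints3 to Chtop, had line means at most 0.69 apart.

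**Figure D4:**
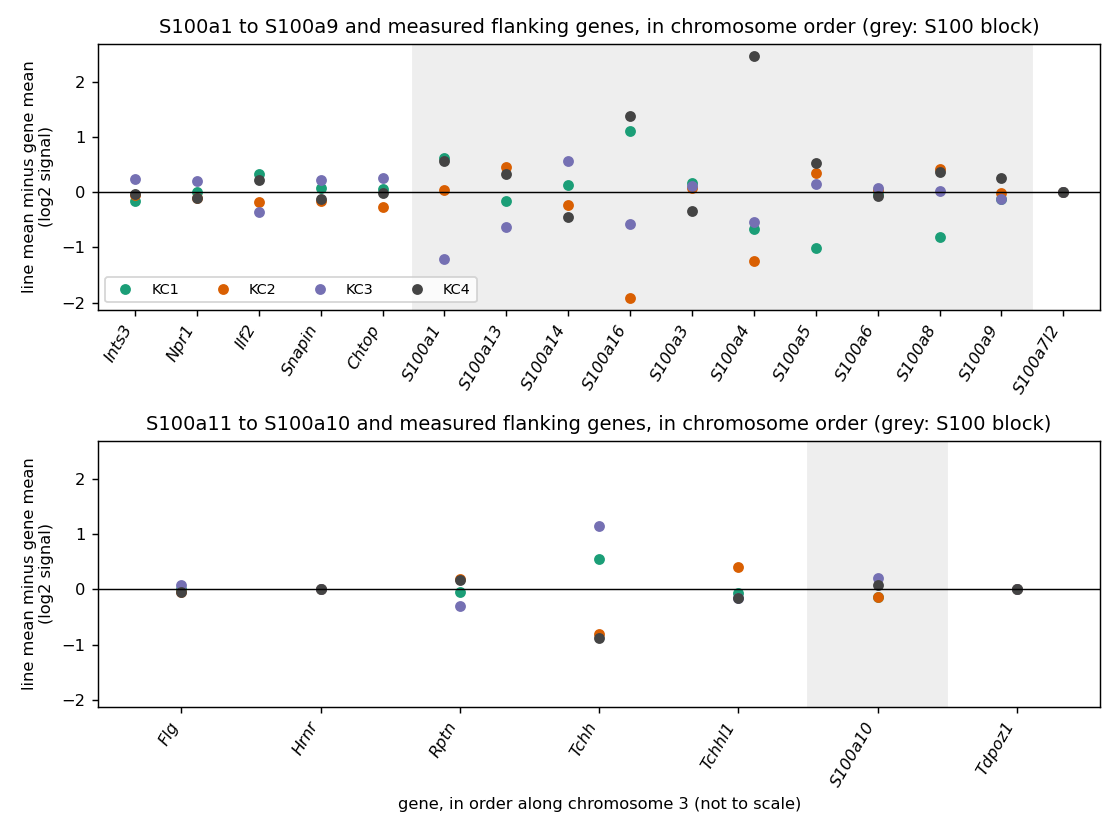
Line means minus the mean of the gene over the 4 lines (log2 signal) for measured genes in their order along chromosome 3. The upper panel runs from Ints3 to S100a7l2 and the lower one from Flg to Tdpoz1, points are lines and grey areas are the S100 blocks. Within the grey area of the upper panel S100a4 and S100a16 spread most, by 3.71 and 3.28, while the genes before it spread by at most 0.69.

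Of 6 other genes of the family that were listed, 4 were measured and 0 were called between the classes by limma, with 1 higher at an unadjusted p under 0.05. S100a3 had line means of 7.75, 7.64 and 7.68 in KC1, KC2 and KC3 and 7.23 in KC4 (log2), and S100g was at the floor on all 12 arrays. The class median of these 4 was -0.30.

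Genes of related function were read from lists. Of 11 measured annexins, calcium-dependent membrane-binding proteins that pair with S100 proteins, 1 was higher and 1 lower between the classes, with a median of 0.078 against -0.00088 over all genes. Anxa8 had line means of 7.93, 8.49 and 8.16 in KC1, KC2 and KC3 and 11.01 in KC4 (difference -2.81, SE 0.094, limma adjusted p = 8.04e-08). Anxa9 ran the other way, with 9.20, 9.63 and 9.49 against 8.16 (1.28, SE 0.063, adjusted p = 7.6e-07). Both set KC4 apart, Anxa9 no longer without KC4 replicate 2 (smallest difference -0.96). Anxa2, the partner of S100a10, was chosen for that role after its values were seen. It had 13.63, 13.79 and 13.67 against 13.95, a difference of -0.25 (SE 0.053, adjusted p = 0.00512) under the minimum for a call.

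Of 8 measured receptors and adaptors of released S100 proteins, 1 was higher and 0 lower, with a median of 0.18. It was Alcam, an adhesion molecule of the immunoglobulin family, with line means of 10.07, 8.84 and 6.99 in KC1, KC2 and KC3 against 6.10 in KC4 (2.53, SE 0.21, limma adjusted p = 1.92e-05), and it set KC1 apart. Its class call was lost when the line was a random block (adjusted p = 0.212) or ignored (0.0709). At an unadjusted p under 0.05, 2 were higher and 2 lower. Ager, the gene of the RAGE receptor, was dim in every line, with line means of 4.72 to 5.67.

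Of 23 measured intracellular partners, 0 were higher and 1 lower between the classes by limma, with a median of -0.11, and at an unadjusted p under 0.05 the numbers were 6 and 4. The lower one was Myh10, a heavy chain of non-muscle myosin, with 7.50, 4.74 and 4.13 in KC1, KC2 and KC3 against 8.0 in KC4 (-2.55, SE 0.41, limma adjusted p = 0.00122), with 3 arrays at the floor. KC1 lay near KC4, and the call was lost with the line as a random block (adjusted p = 0.443) or ignored (0.136). Myh9, the non-muscle myosin chain best known as a target of S100a4, had 12.92, 12.92 and 12.41 against 12.89. It was chosen for that role after its values were seen. The cargoes of S100a13 both set KC2 apart, in opposite directions. Of all genes 1.02% set KC2 apart as lower, and the share for higher is not given here. Il1a had 9.09 ± 0.34, 5.40 ± 1.21 and 10.52 ± 0.14 in KC1, KC2 and KC3 against 8.80 ± 0.086 in KC4, with 1 array at the floor. Fgf1 had 7.29 ± 0.071, 9.04 ± 0.038 and 6.54 ± 0.34 against 7.17 ± 0.10 (SD, n = 3).

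Of 16 inflammatory genes often induced together with S100a8 and S100a9, 1 was higher and 0 lower between the classes, with a median of -0.047. It was the chemokine gene Cxcl5, with 9.52, 7.21 and 4.88 in KC1, KC2 and KC3 against 5.29 in KC4 (1.91, SE 0.23, limma adjusted p = 0.000171). It set KC1 apart, and without KC1 the class difference was 0.75 and not called. The class call was also lost when the line was a random block (adjusted p = 0.696) or ignored (0.386). The neutrophil chemokine gene Cxcl1 set KC3 apart, with 12.86 ± 0.024 there against 10.68 to 11.32 in the other lines. The lipocalin gene Lcn2 also set KC3 apart, with 6.59 ± 0.23 against 4.17 to 4.78, but not at a floor of 64 (smallest difference 0.59). Of 31 genes of the epidermal differentiation complex, the chromosome 3 region of skin barrier genes that holds the S100 blocks, 1 was higher and 2 lower, with a median of 0. Besides Tchh these were Sprr1a (-1.71, SE 0.074, adjusted p = 3.98e-07), which set KC4 apart but not with median centring (smallest difference 0.97), and Lce1h (-1.62, SE 0.52, adjusted p = 0.0399). The Lce1h call was lost without any one of 7 arrays. It was also lost with the line as a random block (adjusted p = 0.706) or ignored (0.0914).

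**Figure D5:**
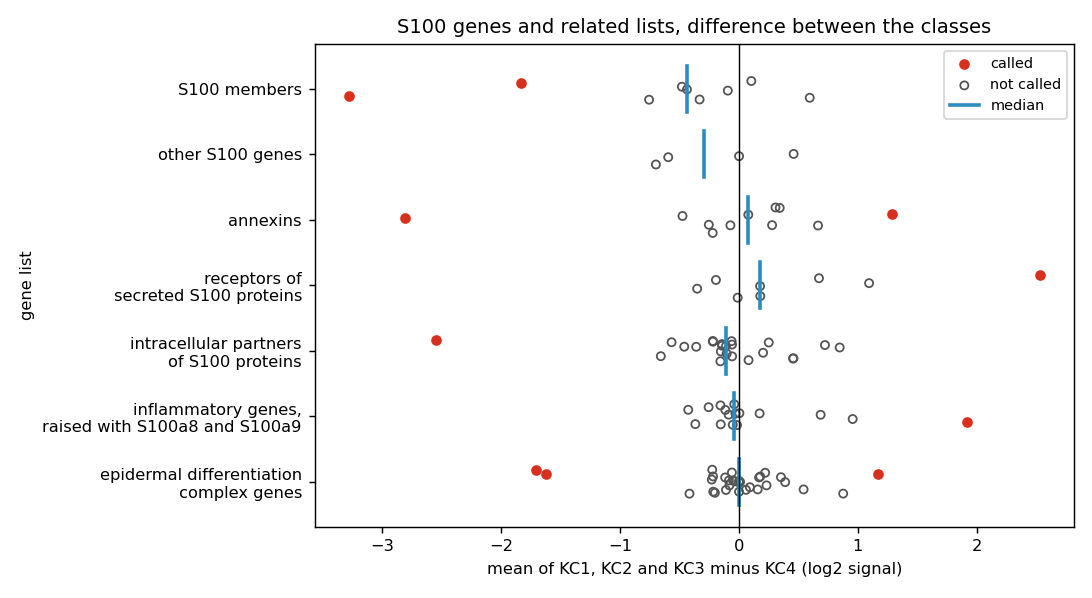
Class difference in log2 signal, averaged over the highly metastatic lines and taken against KC4, for the 9 measured S100 genes and for the genes of 6 related lists. Each point is a gene, filled red where called and open where not, with points spread vertically for legibility, and the blue bar is the median of the list. In each list most genes lie within 1 of 0, and S100a4 at -3.28 is the lowest point shown.

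The genes most like each S100 gene in their levels over the 4 lines were found by the root mean square difference of line means, each centred on the mean of its gene. For S100a4 these were Ccdc80 (0.24), with line means of 4.66, 4.49 and 4.53 in KC1, KC2 and KC3 and 7.78 in KC4, and Ccn4 (0.25), with 4.27, 4.0 and 4.43 against 8.03. For S100a16 they were Gstk1 (0.12), with 7.94, 5.12 and 6.13 against 8.23, and Pank1 (0.20), with 9.13, 5.87 and 7.41 against 8.90. For S100a1 they were Synpr (0.070) and Lockd (0.090), for S100a13 Six2 (0.023) and Actl9 (0.030), and for S100a14 Degs2 (0.017) and Smpd5 (0.026). For S100a8, whose lines mostly overlap, they were Cyp1b1 (0.043) and Nckap5l (0.053). The likeness covers 4 line means, and genes with a smaller span reach smaller values. The matches of S100a4, Ccdc80 (4.49 to 4.66) and Ccn4 (4.0 to 4.43), were near or at the floor in KC1, KC2 and KC3. S100a4 itself, at 7.96 to 8.67 in those lines, was not. Actl9, with line means of 4.12 to 5.12, and Degs2, with 4.33 to 5.33, lay near the floor as well. Genes with a mean under 6 had a median SD of 0.44, which limits what these dim matches show.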

How the data were processed

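RNA of 4 cell lines was measured on 12 one-colour arrays after biotin labelling, per the labels' protocols. The deposited table holds 1 linear intensity per probe set and array. No source used here names the software that made the deposited intensity values. The mean after trimming 2% at each end was 500.002 to 500.003 on every array, the pattern left by scaling to one target, so a change in total RNA per cell would not be seen. Background correction and detection calls are unknown here.

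After 64 control probe sets were left out, signals under 16 were set to 16 and log2 was taken. The platform annotation gave 1 symbol to 34945 probe sets, several to 932, and did not list 9160. Identifiers of 34741 matched RefSeq (GRCm38.p6), which changed 0 symbols. The probe set with the highest mean stood for each of 18193 genes. Lines were compared with limma 3.58.1 under R 4.3.3 (1 coefficient per line, 12 arrays), with Benjamini-Hochberg adjustment over all genes. Other probe sets were tested in a fit over all 45037 probe sets. On simulated data with 200 of 18193 genes changed, the class contrast called 100% of them with 1 false call. The changed genes were drawn from those with a log2 mean above 8, so the check does not cover dim genes such as S100a8 and S100a9. Genes were simulated around their means over all arrays, so differences between lines of a class are not covered either.

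With 3 arrays per line setting the precision, the median SD was 0.44 (log2) for genes with a mean under 6, 0.25 from 6 to 9 and 0.10 above. The members and lists were chosen with earlier results of these data known. Named genes were all members, up to 4 called genes per list by their span over lines, the 2 most alike genes of each member with line means at least 1 apart, and called flanking genes. Outside this rule, Anxa2, Myh9, Ager, S100a3, S100a5, S100g, Col1a1, Pdgfra, Pdgfrb and the flanking genes near the floor were named after values were seen. Alternatives covered the replicate block, left-out arrays and lines, probe set choice, a filter on dim genes, scaling, the prior, the line as a random block or ignored, low values and the minimum difference. Figures were drawn with matplotlib 3.10.9.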

Additional observations from a re-analysis of the deposited data

How the results depend on the processing

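The calls of S100a4 and S100a16 between the classes, and of S100a16, S100a1 and S100a4 as the genes that set KC2, KC3 and KC4 apart, were the same without any single array, with the replicate block, with other choices of probe set, without the dimmer 50% of genes, under both scalings, both priors, the pseudocount and the floor of 64. With the replicate block, 2 members were again lower between the classes, and it changed no call of the members. Same-numbered arrays did not deviate together (correlations of -0.12 to 0.10 over 18 pairs, -0.15 to 0.15 over 36 others), so the numbers are not taken to pair the samples. With the line as a random block or the line ignored, 1 member was lower, S100a4. With no minimum difference 4 members were lower and 1 higher between the classes, 2 set KC2 apart as lower, and KC3 was set apart by 2 as lower and 1 as higher. At a log2 difference of at least 2, 1 member was lower between the classes, while 0 set KC2 and 0 set KC3 apart. The share of all genes that set a line apart was not counted under either changed minimum. The set-apart counts of the members therefore cannot be weighed there. Without KC1, S100a1 was called as well (-1.16). The sign turned for S100a6 with quantile normalization (-0.072) and for S100a9 without KC4 replicate 3 (0.034, lowest over left-out arrays -0.52), neither being called. S100a10 moved to -0.25 with quantile normalization (adjusted p = 0.00116). The counts of all genes higher and lower between the classes were 523 and 468. They were 1122 and 945 over every probe set, 297 and 221 without the dimmer 50%, 152 and 97 with the line as a random block, 272 and 239 with the line ignored, 3051 and 2783 with no minimum difference, and 129 and 120 at a difference of at least 2. Apart from fewer or more features tested and the changed threshold, the cause of these shifts was not tested. Dim genes such as S100a8 and S100a9 are limited by the spread near the floor.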
